A study of Homo sapiens with 2 samples.

Results

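Caveolae are small flask-shaped pits of the plasma membrane, coated by caveolins, which sit in the membrane, and by cavins, which bind that coat from the cytoplasm. At the rim of the pit, EHD2, a membrane-bound ATPase, holds the neck, and PACSIN2, a protein with an F-BAR domain, bends the membrane. Caveolae are best known from endothelial cells, fat cells and muscle cells, where they take part in signalling, uptake of material and protection against stretch. The 7 genes described here are CAVIN2, its cavin relatives CAVIN1 and CAVIN3, the caveolins CAV1 and CAV2, and the neck proteins EHD2 and PACSIN2, out of 19775 genes with a probe set of their own on the array. They were found by gene symbol in the annotation of the platform, which gave 17 of 54675 probe sets, each naming 1 gene. The group was chosen by measured values, the fall of CAVIN2 on its brightest probe set and the lack of one on its second, so these values and the gap between them are a description and support nothing further.

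Total RNA of K562, a human erythroleukemia cell line grown in suspension, was measured on Affymetrix arrays. The 2 groups were cells given 3 µg of a miR-34a mimic and cells given 3 µg of a control mimic, whose sequence matches no human gene. Both cultures received the mimic by nucleofection, an electrical transfer of nucleic acid, and both were lysed 24 hours later. Each group had 1 array, so every value is a single measurement, no test between the groups was possible, and a change in RNA per cell cannot be told apart from a change in the mix of cells in a culture.

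The agent of the comparison is the microRNA itself, shown here because its bases 2 to 8, the seed in capitals, pair with target mRNAs. RefSeq places hsa-miR-34a-5p, the arm usually meant by the name, at chr1:9151735-9151756 on the minus strand of GRCh38.p14. The labels do not say which arm the mimic holds. Among the microRNA sequences read here, the same seed is carried by hsa-miR-449a and hsa-miR-449b-5p, which are shown for comparison and were not transfected. This list of microRNAs with the seed need not be complete.
hsa-miR-34a-5p: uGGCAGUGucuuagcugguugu
hsa-miR-449a: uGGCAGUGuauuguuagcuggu
hsa-miR-449b-5p: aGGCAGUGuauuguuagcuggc

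Signals below are the deposited values in arbitrary units. The log2 ratio is miR-34a mimic over control mimic on the scale log2(signal + 14.9), less the median of expressed genes, and it understates the change of dim probe sets. A probe set was expressed when its mean level was at or above the median of all probe sets, and within background when its signal was at or below 75.4, the highest of 27 bacterial control probe sets. The median signal was 40.1 with the miR-34a mimic and 39.5 with the control mimic. The 3′ to 5′ signal ratio, which grows as RNA degrades, was 3.53 with the miR-34a mimic and 3.07 with the control mimic for GAPDH, and 4.54 and 4.30 in the same order for ACTB. Of the 17 probe sets, 14 were expressed, 12 lay above background on both arrays and 5 lay within background on both.

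CAVIN2 was lower with the miR-34a mimic on 1 of its 2 probe sets, while of the 6 other members EHD2 was higher and the rest lay within 1.5-fold on their brightest probe set. Taking the brightest probe set of each gene, 3 of the 7 members had a lower and 4 a higher value, against 50% of expressed genes lower, a share that the centring sets. CAVIN2 was the 1 member at least 2-fold lower, a size passed by 0.548% of the 12774 expressed genes, and it was the value the group was chosen on. 0 members were at least 2-fold higher, a size passed by 0.595% of expressed genes. At 1.5-fold, EHD2 was the 1 member higher, against 3.28% of expressed genes, and CAVIN2 the 1 member lower, against 3.01%.

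**Figure D1:**
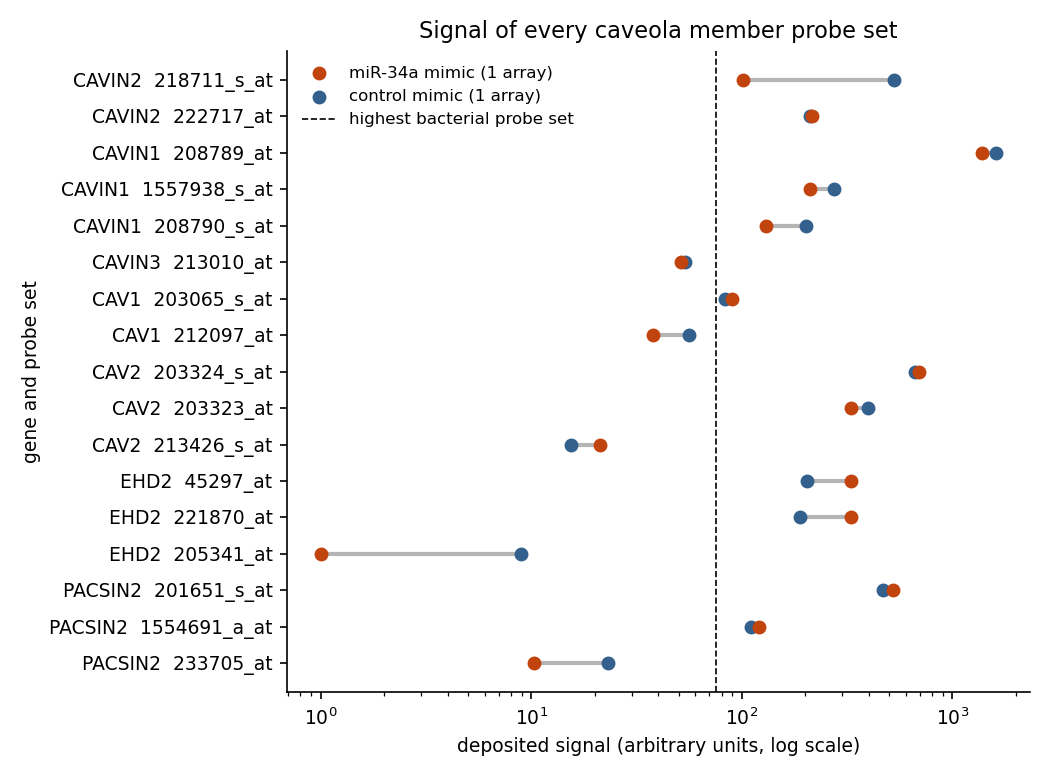
Deposited signal (log axis, arbitrary units) of the 17 member probe sets with the miR-34a mimic and with the control mimic, 1 array each, joined by a grey line, with the highest bacterial control probe set at 75.4 as a dashed line. Probe set 218711_s_at of CAVIN2 reads 100.6 with the miR-34a mimic and 527.8 with the control mimic, while 222717_at of the same gene reads 216.2 and 210.2.

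CAVIN2, also known as SDPR, encodes a cavin that binds phosphatidylserine, is a substrate of protein kinase C and was first described in platelets. Its brightest probe set, 218711_s_at, gave a signal of 100.6 with the miR-34a mimic and 527.8 with the control mimic, a signal 5.24-fold lower and a log2 ratio of -2.24. Both signals lay above background. This was the lowest log2 ratio of the 12774 expressed genes. The next lowest were NAGPA at -1.91 and TSEN15 at -1.88. The other probe set of CAVIN2, 222717_at, gave 216.2 with the miR-34a mimic and 210.2 with the control mimic, a log2 ratio of 0.029. It too lay above background on both arrays and showed almost no difference between them.

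The probe sets of CAVIN2 therefore differed by 2.27 on the log2 scale. Among the 5494 genes with at least 2 expressed probe sets, none had a larger gap between its brightest and its second brightest, which describes the values CAVIN2 was chosen on. The median gap over these genes was 0.16, and 95% of them had a gap of at most 0.64. Of the 28 genes that were at least 2-fold lower on the brightest probe set, 23 were lower on the second, 12 of them at least 2-fold, and the median of the second was -0.76. CAVIN2 was among the 5 whose second probe set was not lower. RefSeq lists 1 transcript and 1 start site for CAVIN2. The brightest, 218711_s_at, is of the _s_at class, which can also read related transcripts, while 222717_at is not. The places on the transcript that the probe sets read were not used here. Which of them follows the CAVIN2 mRNA was not tested, and the log2 ratio averaged over both was -1.11 with an SD over probe sets of 1.60.

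**Figure D2:**
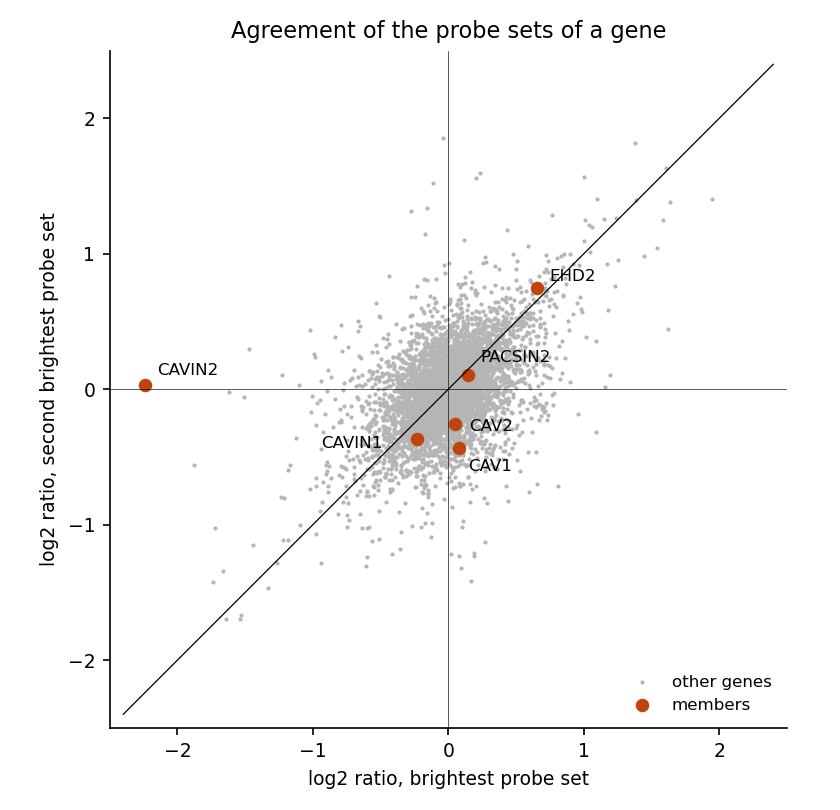
Log2 ratio (miR-34a mimic over control mimic) of the second brightest against the brightest expressed probe set of 5494 genes, with 6 members in colour and the line of equal values. CAVIN2 lies at -2.24 and 0.029, far from the line, and EHD2 lies close to it at 0.66 and 0.75.

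CAVIN1, also called PTRF, is the cavin needed for caveolae to form and the one with which the other cavins assemble. It was lower with the miR-34a mimic on each of its 3 probe sets, all above background, and past 1.5-fold on the dimmest alone. Probe set 208789_at gave 1380.8 with the miR-34a mimic and 1609.7 with the control mimic, a log2 ratio of -0.23. Probe set 1557938_s_at gave 210.6 with the miR-34a mimic and 274.5 with the control mimic, a ratio of -0.37. The dimmest of them, 208790_s_at, gave 130.3 with the miR-34a mimic and 202.5 with the control mimic, a ratio of -0.59. The mean ratio was -0.40 ± 0.18 (SD over 3 probe sets), where the SD is technical and says nothing of differences between cultures. Of all expressed genes, 18.4% had a lower ratio than CAVIN1 on its brightest probe set and 2.88% a lower one than on its dimmest.

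CAVIN3, also called PRKCDBP, binds protein kinase C delta and has 1 probe set, which lay within background. It read 51.4 with the miR-34a mimic and 53.9 with the control mimic, a log2 ratio of -0.062. No change is read from it. Of the 3 cavins among the members, CAVIN1 was thus lower on all its probe sets, with ratios from -0.23 to -0.59. CAVIN2 was lower by much on 1 probe set, and CAVIN3 was not detectable above background.

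CAV1 encodes the main caveolin, on which the pits depend in most cells. Its signals were at the edge of detection in K562. Probe set 203065_s_at gave 89.9 with the miR-34a mimic and 83.5 with the control mimic, just above background, with a log2 ratio of 0.082. Probe set 212097_at gave 37.8 with the miR-34a mimic and 56.0 with the control mimic, both within background, with a ratio of -0.44. These probe sets had opposite signs, and no direction is given for CAV1.

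CAV2 encodes a caveolin that depends on CAV1 to leave the Golgi in many cells, and in the RefSeq gene table it lies beside CAV1 on chromosome 7 with 0 genes starting between them. Unlike CAV1, it was well above background. Probe set 203324_s_at gave 692.2 with the miR-34a mimic and 665.5 with the control mimic, a log2 ratio of 0.047. Probe set 203323_at gave 331.0 with the miR-34a mimic and 396.5 with the control mimic, a ratio of -0.26. The third, 213426_s_at, read 21.2 and 15.4 in that order, within background. The ratios of the CAV2 probe sets above background had opposite signs and lay within 1.5-fold.

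EHD2 was the partner with the largest difference on its brightest probe set. Its sign was opposite to that of the brightest CAVIN2 probe set, while the other CAVIN2 probe set had 0.029. Probe set 45297_at gave 331.1 with the miR-34a mimic and 203.2 with the control mimic, a log2 ratio of 0.66, and 221870_at gave 330.1 with the miR-34a mimic and 188.8 with the control mimic, a ratio of 0.75. These lay above background, and their gap of 0.094 was exceeded by 67.8% of the 5494 genes. Only 2.36% of expressed genes had a higher ratio than EHD2 on its brightest probe set. The third probe set, 205341_at, read 1.0 with the miR-34a mimic, the lowest value in the table, and 8.9 with the control mimic, so it carries no measurement of EHD2 above background. The probe sets of 1 gene read the same RNA of the same cultures and are not replicates of the condition.

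PACSIN2, also named syndapin II, was the member with the closest agreement between its expressed probe sets. Probe set 201651_s_at gave 523.1 with the miR-34a mimic and 469.2 with the control mimic, a log2 ratio of 0.14. Probe set 1554691_a_at gave 121.1 with the miR-34a mimic and 110.7 with the control mimic, a ratio of 0.11. The third, 233705_at, read 10.3 and 23.0 in the same order, within background. PACSIN2 was slightly higher with the miR-34a mimic on the probe sets that measured it, and 28.4% of expressed genes had a higher ratio.

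**Figure D3:**
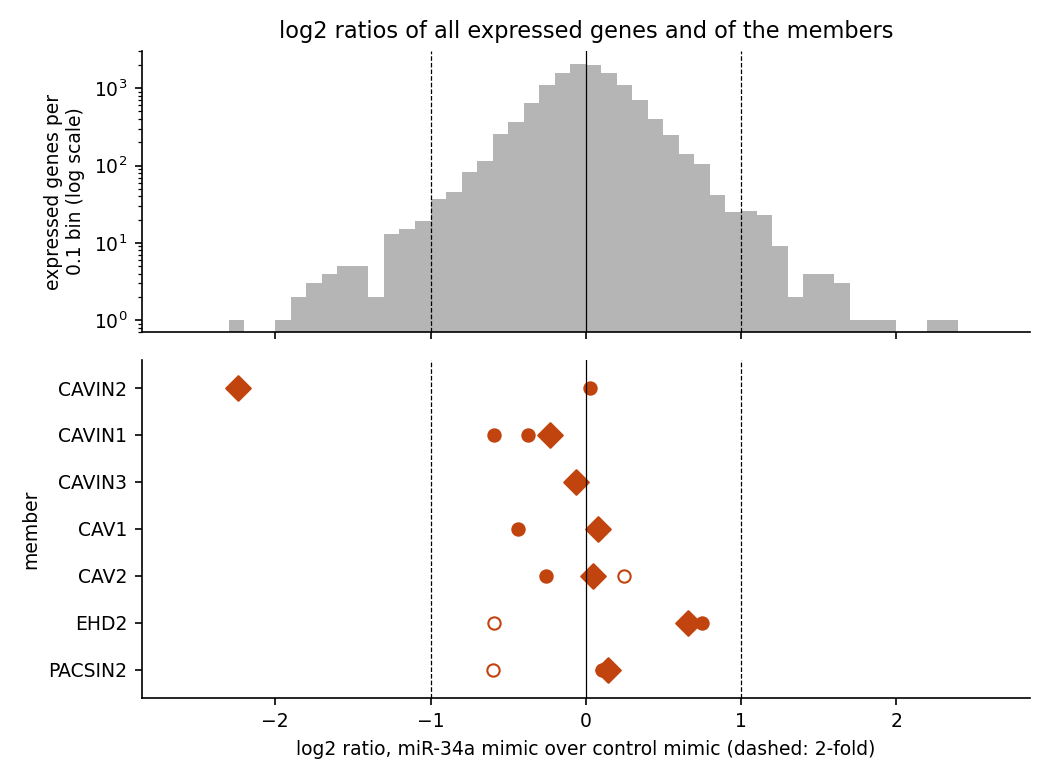
Upper panel, number of expressed genes (log axis) by log2 ratio of miR-34a mimic over control mimic, in bins of 0.1. Lower panel, the same ratio for each member probe set, with diamonds for the brightest of a gene, filled symbols for expressed and open ones for probe sets under the filter. Dashed lines mark 2-fold, which only the brightest probe set of CAVIN2 passes, at -2.24.

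Other genes with a place at caveolae were read from a list of 14, of which 13 had a probe set of their own and 6 were expressed. Among them 3 had a lower and 3 a higher value, against 50% of expressed genes lower. At 2-fold, 1 of the 6 was higher, against 0.595% of expressed genes, and 0 were lower, against 0.548%. Their median log2 ratio was -0.12, beside 0 for all expressed genes by the centring. NOSTRIN, an F-BAR protein that binds the endothelial nitric oxide synthase and caveolin, gave 1630.3 with the miR-34a mimic and 673.2 with the control mimic on its single probe set, a log2 ratio of 1.25. EHD1, a close relative of EHD2 that acts in recycling from endosomes, gave 1270.0 with the miR-34a mimic and 694.8 with the control mimic, a ratio of 0.85. All 5 probe sets of EHD1 were higher, between 0.44 and 0.85, and all 5 are of the _s_at or _x_at classes, which can also read related transcripts.

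The remaining EHD genes did not share the sign of EHD1 and EHD2 throughout. EHD4 had 4 expressed probe sets, 2 lower and 2 higher, between -0.38 and 0.22, and its brightest gave 164.6 with the miR-34a mimic and 218.0 with the control mimic. The 2 lower ones, at -0.38 and -0.32, lay above background on both arrays, the latter barely so with the miR-34a mimic. The 2 higher ones, at 0.22 and 0.13, had control signals within background. EHD3 read at most 42.4, within background. The dynamins cut membrane necks. DNM1 had the lowest ratio of the list, -0.81, with 67.6 with the miR-34a mimic, within background, and 128.8 with the control mimic, while the widely expressed DNM2 had -0.30 and 0.062 on its brightest and next probe set. The muscle forms CAV3 and CAVIN4 read at most 1.85 and 3.96, and PACSIN1, PACSIN3, DNM3 and ROR1 also lay within background on both arrays. The endothelial diaphragm gene PLVAP was within background too, at 61.3 with the miR-34a mimic and 57.9 with the control mimic.

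**Figure D4:**
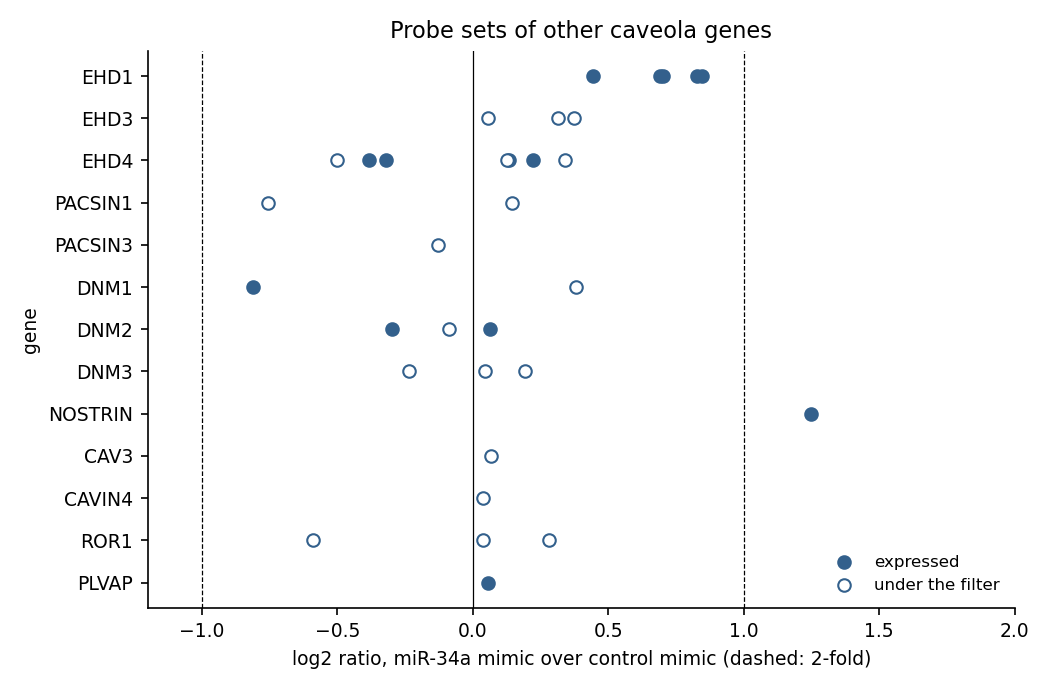
Log2 ratio (miR-34a mimic over control mimic) of every probe set of 13 further caveola genes, filled where expressed and open where under the filter, with dashed lines at 2-fold. NOSTRIN lies at 1.25, the 5 probe sets of EHD1 lie between 0.44 and 0.85, and the expressed probe sets of EHD4 lie on both sides of 0.

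Genes of other membrane scaffolds and of another uptake route lay within 1.5-fold on their brightest expressed probe set, apart from FLOT2. Flotillins and stomatin form flat membrane domains, and of a list of 6 made of these and the relatives of stomatin, 5 were expressed. All 5 were lower, against 50% of expressed genes by the centring, with a median of -0.097. STOML1, at -0.097 on its brightest probe set, had 0.034 on its other expressed one. FLOT2 was the lowest at -0.69, with 400.3 with the miR-34a mimic and 652.6 with the control mimic, STOML2 followed at -0.13, and STOM and FLOT1 were the highest at -0.075 and -0.062. All 9 genes of the clathrin coat and its AP-2 adaptor were expressed. Of these, 8 were higher and 1 was lower on the brightest probe set, against the same 50%, with a median of 0.16. AP2A1 and CLTA, counted as higher, also had expressed probe sets that were lower, down to -0.14 and -0.051. At 2-fold, 0 of the 9 genes passed, against 0.548% of expressed genes lower and 0.595% higher. CLTCL1, within background on both arrays, and CLTB had 0.32 each, and AP2S1 and AP2B1 had -0.048 and 0.0094. Of 6 kinases that act on caveolins or cavins or signal from caveolae, 3 were lower and 3 higher, with a median of 0.0088. ABL1, which K562 also carries as the BCR-ABL fusion, had -0.35, PRKCD -0.069 within background, FYN 0.16 and AKT1 0.14.

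Markers of cells rich in caveolae and of platelets were read beside the members. Of 9 endothelial markers 2 were above background, PECAM1 at -0.23 and VWF at 0.063, and CDH5 and TEK read 1.0, the floor of the table, with the miR-34a mimic. The summed signal of the endothelial list was 398.0 with the miR-34a mimic and 418.6 with the control mimic. Of 5 fat cell markers 1 was above background on either array, LPL at -0.36 with its miR-34a signal within background, and FABP4 had -0.035 within background, with list sums of 199.95 and 190.2 in the same order. As 7 of the 9 endothelial and 4 of the 5 fat cell markers lay within background on both arrays, these sums do not describe their lists as a whole. Of 10 smooth muscle and fibroblast markers 5 were above background, with sums of 912.5 with the miR-34a mimic and 1084.6 with the control mimic. Among the 7 expressed genes of that list COL1A2 and DCN were the lowest at -0.91 and -0.42, and TAGLN and ACTA2 the highest at 0.28 and 0.22, DCN and TAGLN within background. K562 identity rested on erythroid genes, of which 7 of the 8 with a probe set of their own were expressed. Among these 7, 6 were higher and 1 lower on the brightest probe set, against 50% of expressed genes lower by the centring. TAL1 and EPOR, counted as higher, also had expressed probe sets that were lower, down to -0.10 and -0.084. TFRC had -0.12, KLF1 0.096, SLC4A1 1.17 and ALAS2 1.88, the last pair from control signals within background. By the mean of all probe sets SLC4A1 had 0.63 and ALAS2 1.19, and ALAS2 had 0.49 without the _s_at, _x_at and _a_at classes.

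CAVIN2 mRNA is found in platelets, and genes of the megakaryocyte and platelet lineage were read for that reason. Of the 9 with a probe set of their own, 7 passed the filter on level and 3 lay above background. Among the 7, 4 were higher and 3 lower, against 50% of expressed genes lower, with a median of 0.54. The summed signal was 2136.3 with the miR-34a mimic and 1236.1 with the control mimic, and GP6 alone, at 1250.0 and 750.4 in the same order, held most of it. As 6 of the 9 genes also lay within background on both arrays, the sum does not describe the list as a whole. GP6, TUBB1 and ITGA2B, the 3 above background, were higher, opposite in sign to the brightest CAVIN2 probe set. GP6 has 1 probe set, of the _s_at class, which can also read related transcripts. TUBB1 had 1.62 on its brightest probe set and 0.44 on its other, while GP9 and PF4 had -0.29 and -0.22 within background on both arrays. ITGA2B read 344.0 with the miR-34a mimic and 163.4 with the control mimic, 2.10-fold in signal. On this probe set its log2 ratio lay just under 2-fold with the pseudocount and centring used. It was 1.06 with a pseudocount of 1 and 1.01 without centring. The other expressed probe set of ITGA2B had 1.56, and the mean of all its probe sets was 0.90. The part of lineage genes in the value of CAVIN2 was not tested.

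The genes most like CAVIN2 were those with the smallest distance between their 2 log2(signal + 14.9) values, 1 per array, and those of the brightest CAVIN2 probe set. Levels of different probe sets are only roughly comparable, so this is a description of 2 arrays. TAF4B, a TFIID subunit gene, was nearest at a distance of 0.48, with a log2 ratio of -1.62 and a second probe set at -0.023. GNPDA1, an enzyme gene of glucosamine metabolism, followed at 0.49 with a ratio of -1.55, and TSEN15, a tRNA splicing gene, at 0.50 with -1.88 and a second probe set at -0.56. GINS3, of the replicative helicase, was at 0.70 with -1.26 and -1.28 on its probe sets, and SH3GL1, which encodes the endocytic protein endophilin A2, was at 0.74 with -1.22. Thus 3 of these 5 genes had a second expressed probe set, and GINS3 alone was at least 2-fold lower on it. TSEN15 had 3 expressed probe sets. By the mean of all probe sets TSEN15 had -1.24, GINS3 -1.26 and TAF4B -0.81.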

How the data were processed

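The authors deposited 1 table of linear intensity values per probe set, 1 column per array. No source used here names the software, background correction or scaling, which affect dim probe sets most. Biotinylated cRNA came from Trizol-extracted RNA, per the labels' protocols.

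The value log2(intensity + 14.9) was computed, with the 25th percentile of all values as pseudocount. The ratio is miR-34a mimic less control mimic, less the median over 12774 expressed genes, 0.0090. Expressed means a mean level from the median of 54613 probe sets other than controls, a signal of about 39.0. A gene took its brightest expressed probe set with 1 symbol. With 1 array per group there were no tests, and genes were counted by size. Members, lists and rules were chosen with earlier results of these data known. Named were all members, the 2 highest and 2 lowest expressed genes of each list, and the 5 nearest to CAVIN2. NAGPA, GP6, EHD3 and dim or remaining list genes were named after their values were seen. Some listed genes are not reported here. Calculations were tested on simulated data. Python 3.11.15, NumPy 2.4.6, pandas 2.3.3 and statsmodels 0.14.6 were used. Alternatives changed the pseudocount, filter, centring, normalization, probe sets per gene and size threshold.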

Additional observations from a re-analysis of the deposited data

How the results depend on the processing

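No paired analysis was possible because each group had 1 array. Under the other pseudocounts, no centring, quantile and loess normalization, every member kept its sign on its brightest probe set, with CAVIN2 between -2.39 with a pseudocount of 1 and -1.88 with 4 times the pseudocount and EHD2 between 0.56 and 0.69. The choice of probe sets mattered more. Without the _s_at, _x_at and _a_at classes CAVIN2 turned to 0.034, CAV1 to -0.43, CAV2 to -0.25 and PACSIN2 to -0.59 on a dim probe set, and 0 of the 6 members that were then expressed were 2-fold lower. By the mean of all probe sets, centred anew, CAVIN2 was -1.10, CAV1 -0.17, EHD2 0.28 and PACSIN2 -0.11, dim probe sets included, and 5 members were lower in place of 3. Without a filter 5 of 13 other caveola genes were lower. DNM1 turned to 0.39 without those classes, and FLOT1, TFRC and DCN to 0.015, 0.0045 and 0.23 by the mean of all probe sets, while the other 33 further genes named by rule kept their sign, and 20 of 246 of these values moved by over 0.22, the spread between probe sets.

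Expressed genes at least 2-fold lower numbered 70, and 41 with 4 times the pseudocount, 46 by the mean of all probe sets, 125 and 46 with the filter at the 25th and 75th percentile, 206 without a filter and 384 at 1.5-fold. Those higher numbered 76, and 28, 136, 42, 215 and 419 under the same settings apart from the mean. Signal near background and 1 array per group limit CAVIN3, CAV1 and the dim list genes most. The alternatives for genes other than members were added after seeing the data.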
